A study of Mus musculus with 61 samples.

Results

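Chaf1b, Rbbp4 and Pcna, the genes of 2 subunits of the histone chaperone CAF-1 and of the replication clamp that CAF-1 binds, were taken by symbol from a Sono-seq table of enhancers and promoters of mouse embryonic stem cells. They are 3 of its 5154 genes. They bring 3 promoters and 9 enhancers, of 5513 promoter start sites and 14265 enhancers in all. To these were added all Sox2 binding positions within 100 kb of the 3 start sites in 3 lists, which are 9 positions for the Chaf1a.166 hairpin, 10 for Chaf1a.2122 and 9 for the control hairpin against Renilla luciferase. Members were picked by gene name and positions by distance, with earlier results of these data known.

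CAF-1 places newly made histones H3 and H4 on DNA behind the replication fork. It has a large subunit, encoded by Chaf1a, a middle subunit with WD repeats, encoded by Chaf1b, and the small histone-binding subunit Rbbp4, which also serves in histone deacetylase, Polycomb and nucleosome remodelling complexes. Pcna encodes the ring-shaped clamp that holds DNA polymerases on their template and brings CAF-1 to replicated DNA. Lowering CAF-1 is known to ease the reprogramming of fibroblasts by Oct4, Klf4, Sox2 and Myc (OKSM).

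All groups were fibroblasts of E13.5 embryos of the strain Black6-129X1/SvJ with the alleles Col1a1::tetOP-OKSM and R26-M2rtTA, a doxycycline-inducible OKSM cassette and its activator, kept in serum and LIF with ascorbate. They were sampled on day 3 of doxycycline at 2 µg/ml. Sono-seq, in which cross-linked chromatin is sonicated and the freed DNA sequenced, so that accessible regions are over-represented, had 3 CAF-1 knockdown and 3 Renilla libraries. The Sox2 ChIP-seq had 1 immunoprecipitate and 1 input each for Chaf1a.166, Chaf1a.2122 and Renilla. For Sono-seq the labels give a knockdown of CAF-1 without naming the subunit, so whether Chaf1b was itself a target is not known from them. RNA was not analysed here, so neither the knockdown nor fibroblast identity was checked, and nothing below is a level of Chaf1b, Rbbp4 or Pcna RNA.

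The deposited Sono-seq table gives 1 value per region and condition, without its unit or the way in which the 3 libraries were combined. The Sox2 lists come from single libraries of unknown depth. No replicate error can therefore be given and no comparison has a test. A region counts here as higher or lower past 1.2-fold, and each count is set beside the share of all regions of its kind past the same fold. A difference in either data set describes these deposited values.

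The promoters of the 3 genes had similar Sono-seq values, and none differed by 1.2-fold between the conditions as deposited. With the columns scaled to equal medians the Rbbp4 promoter was just past it, at a log2 ratio of -0.27. As deposited, 11.3% of all promoters were at least 1.2-fold higher with CAF-1 knockdown and 13.3% at least 1.2-fold lower. With equal medians these shares were 9.65% and 15.0%. The Chaf1b promoter, on chromosome 16 at 93884145 (mm9), had 0.146 with CAF-1 knockdown and 0.134 with Renilla. Its log2 ratio of 0.13 was above that of 73.1% of promoters. The Rbbp4 promoter, on chromosome 4 at 129012614, had 0.116 with CAF-1 knockdown and 0.138 with Renilla. Its log2 ratio of -0.25 was the lowest of the 3, and 14.7% of promoters lay below it. The Pcna promoter, on chromosome 2 at 132078916, had 0.123 with CAF-1 knockdown and 0.125 with Renilla. Its log2 ratio of -0.019 lay near the middle of the table, above 48.3% of promoters. In level, Chaf1b was first of the 3 with CAF-1 knockdown, and Rbbp4 was first with Renilla. Without replicate values it cannot be said which neighbours in either order differ.

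The enhancers showed a wider spread, most of it within Chaf1b. Chaf1b has 7 listed enhancers, against a median of 3 per gene, while Rbbp4 and Pcna have 1 each. Of the 7, 5 had more signal with CAF-1 knockdown, against 55.3% of all enhancers. At 1.2-fold, 2 of the 7 were higher, against 15.5% of all enhancers, and 1 was lower, against 10.6%. Their log2 ratios had a median of 0.18 and a mean of 0.11 ± 0.30 (SD over the 7 enhancers, which are not replicates). All enhancers had a median of 0.028 and an SD of 0.23.

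The highest of these ratios was closest to the gene. The enhancer 6255 bp downstream of the Chaf1b start site, on chromosome 16 at 93890400, had 0.188 with CAF-1 knockdown and 0.134 with Renilla. That is 1.40-fold, above 97.6% of enhancers, and its CAF-1 value was above that of 93.8% of them. The next one downstream, at 18755 bp, had 0.132 with CAF-1 knockdown and 0.108 with Renilla, or 1.23-fold. The farthest downstream, at 39755 bp, had 0.131 with CAF-1 knockdown and 0.116 with Renilla, a log2 ratio of 0.18. All 3 enhancers downstream of the start site were thus higher with CAF-1 knockdown.

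Upstream, the 4 enhancers went both ways. The one at 82345 bp had 0.104 with CAF-1 knockdown and 0.141 with Renilla, a log2 ratio of -0.43 with only 2.40% of enhancers below it. The one at 12495 bp had 0.158 with CAF-1 knockdown and 0.175 with Renilla (-0.15), and this Renilla value was above that of 91.5% of enhancers. The enhancers at 98445 and 75545 bp had log2 ratios of 0.21 and 0.18. The lowest ratio of the locus thus lay between neighbours that were both on the other side of 0.

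The single enhancers of Rbbp4 and Pcna were both lower with CAF-1 knockdown, within 1.2-fold. The Rbbp4 enhancer, 37014 bp downstream of the start site on chromosome 4 at 128975600, had 0.0806 with CAF-1 knockdown and 0.0901 with Renilla (log2 ratio -0.16). Its signal was low in both conditions, with 2.08% of enhancers below it for CAF-1 and 3.83% for Renilla. The Pcna enhancer, 19266 bp downstream on chromosome 2 at 132059650, had 0.130 with CAF-1 knockdown and 0.142 with Renilla (-0.12). At Rbbp4 and at Pcna, promoter and enhancer therefore had ratios of the same sign, while the Chaf1b enhancers stood on both sides of their promoter.

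**Figure D1:**
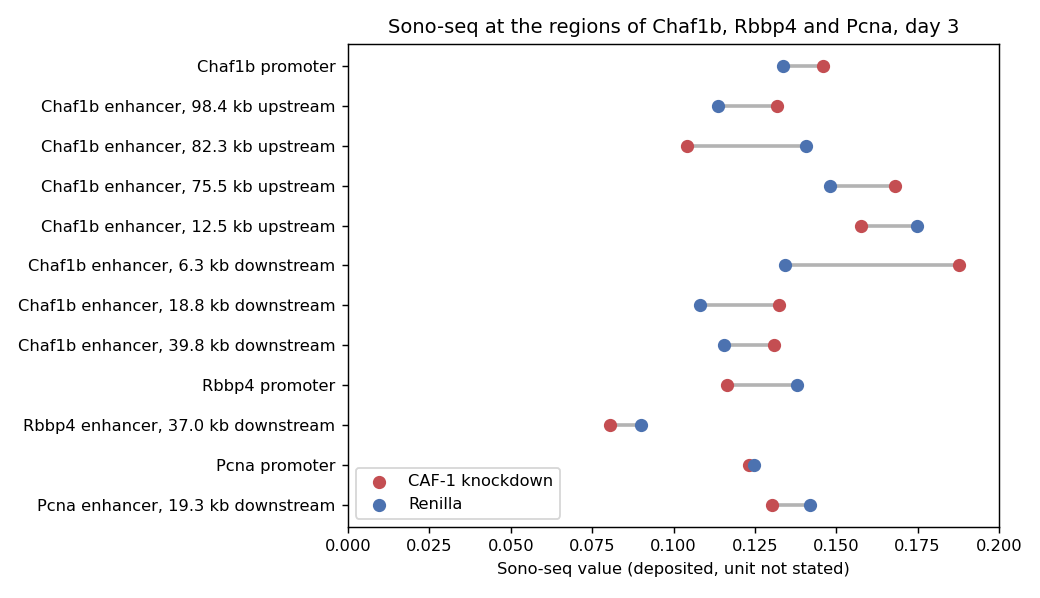
Deposited Sono-seq value (x axis, unit not stated) of each promoter and enhancer of Chaf1b, Rbbp4 and Pcna, with CAF-1 knockdown in red, Renilla in blue and a grey line joining the 2 values of a region. Distances are along the direction of transcription. The widest gaps are those of the Chaf1b enhancers 6255 bp downstream (CAF-1 knockdown 0.188, Renilla 0.134) and 82345 bp upstream (CAF-1 knockdown 0.104, Renilla 0.141), and the Pcna promoter has nearly equal values.

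**Figure D2:**
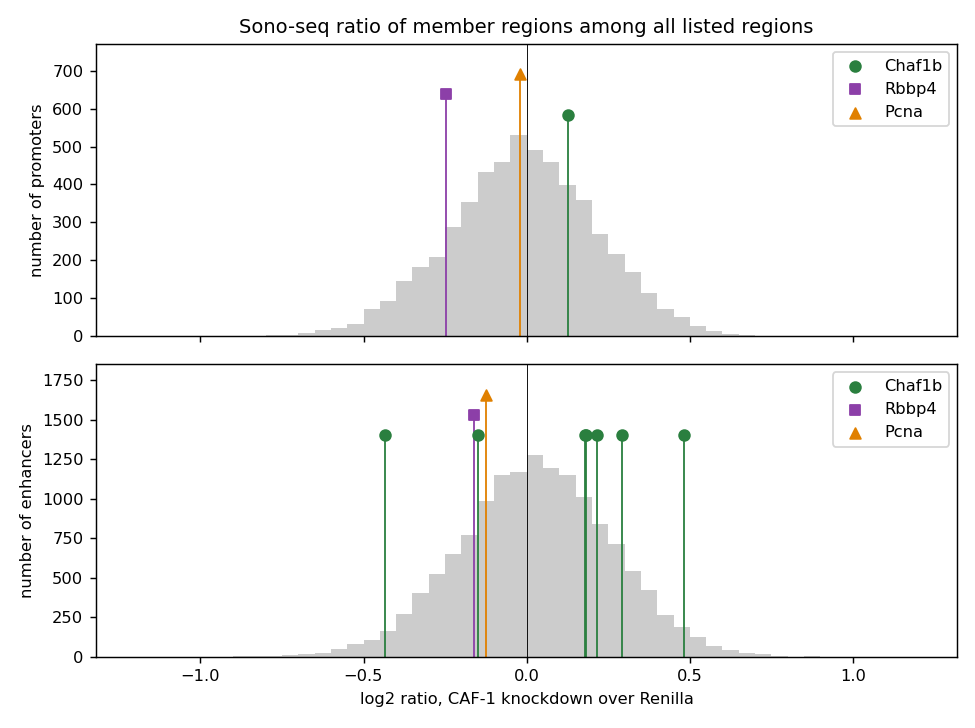
Log2 ratio of CAF-1 knockdown over Renilla (x axis) of the 3 genes' promoters (top) and enhancers (bottom), drawn as coloured lines over the histogram of all 5513 promoters or 14265 enhancers (y axis, number of regions). Marker heights only separate the genes. The 3 promoters lie within the bulk of the histogram, and Chaf1b enhancers reach from -0.43 to 0.48.

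None of the 9 enhancers belongs to 1 gene alone. The table lists all 7 of Chaf1b also for Morc3, that of Rbbp4 also for Zbtb8os, and that of Pcna also for 5730494N06Rik. Of all enhancers, 29.7% are listed for more than 1 gene. The ratios above are thus as much those of the neighbours. Morc3, whose start site lies 51780 bp upstream of Chaf1b and which encodes a nuclear ATPase with a CW zinc finger, had a promoter value of 0.169 with CAF-1 knockdown and 0.132 with Renilla. Its log2 ratio of 0.36, above 95.0% of promoters, was larger than that of Chaf1b.

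Zbtb8os starts 655 bp from Rbbp4 and its promoter had 0.116 with CAF-1 knockdown and 0.138 with Renilla. This promoter was also the one most like that of Rbbp4 in the whole table, by distance between the log2 values of both conditions (0.0033, over 2 values). At such spacing the 2 promoters can share their signal, and they are not independent measurements. The next most like Rbbp4 was that of Rnft1. Those most like Chaf1b were the promoters of Cog6 and Slc30a9, and those most like Pcna were 2410127L17Rik and Cdc42ep4, all within a distance of 0.0114. Among 5513 promoters with 2 values each, near matches of this kind are easily found. Around Pcna, the promoters of Cds2, 10076 bp upstream, and of 5730494N06Rik, 5392 bp downstream, had log2 ratios of 0.23 and 0.095, on the other side of 0 from Pcna.

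The 3 genes differed in how many Sox2 positions surrounded them. When positions at most 200 bp apart were merged, 7 sites lay around Rbbp4, 4 around Pcna and 1 around Chaf1b, or 12 in all. Of these, 6 were in every list, 4 in 2 lists and 2 in 1 list. Over all merged sites, 11004 of 25432 were in every list. Scores and enrichments over input are the authors' own for each position, and are read here only against other positions of the same list. The lowest score of a list is 14.8 for Chaf1a.166, 12.4 for Chaf1a.2122 and 13.3 for Renilla, and a position missing from a list may lie just below it.

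At the Chaf1b start site, both Chaf1a knockdown lists held a Sox2 position and the Renilla list held none. The Chaf1a.166 position was on chromosome 16 at 93884009, 136 bp upstream of the start. The Chaf1a.2122 position was at 93884087, 58 bp upstream, so the 2 positions lay 78 bp apart. The nearest Renilla position was 118980 bp away. Of all start sites in the table, 0.980% had a position within 500 bp in both knockdown lists and none in Renilla, and 4.17% had one in all 3 lists.

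By score, both positions were among the weakest of their lists. That of Chaf1a.166 scored 14.92, only 0.115 above the list minimum, and ranked 15661 of 15888. Its enrichment over input was 1.79 with a lower bound of 0.464, at rank 15717 by enrichment. The Chaf1a.2122 position scored 13.07, 0.627 above its minimum, and ranked 17842 of 19319. Its enrichment was 5.12 with a lower bound of 1.20, at rank 12832 by enrichment and below the list median of 7.46. With every list limited to its best 15888 positions the Chaf1a.2122 position was gone, and with a lower bound of at least 2 both were. The difference between the knockdown and Renilla lists at Chaf1b therefore rests on positions at the threshold.

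Away from its start site, Chaf1b had no further Sox2 position within 100 kb in any list. A share of 84.2% (Chaf1a.166), 88.0% (Chaf1a.2122) and 85.1% (Renilla) of all start sites had at least 1 within that distance, so the empty Renilla window was the less common case. Positions in both knockdown lists and none in Renilla within 100 kb were found at 3.08% of start sites. The nearest site in all 3 lists lay just outside it, 118902 bp (Chaf1a.166), 118949 bp (Chaf1a.2122) and 118980 bp (Renilla) upstream. There the scores were 31.4 (Chaf1a.166), 28.7 (Chaf1a.2122) and 20.2 (Renilla), above each minimum by 6.82 or more.

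Of the 3 genes, Rbbp4 had most Sox2 positions, though several of its sites lay nearer to another listed start site. In the lists as deposited, 5 of its 7 sites were in every list, against 11004 of 25432 sites in all. Its window held 6 positions in Chaf1a.166, 6 in Chaf1a.2122 and 7 in Renilla, against a median of 2 per start site in each list. A count of 6 or more was found at 7.06% (Chaf1a.166), 10.7% (Chaf1a.2122) and 8.24% (Renilla) of start sites, and in all 3 lists together at 4.55%. Of the remaining sites, that about 76 kb downstream was in Chaf1a.166 and Renilla, and that about 10 kb upstream was in Chaf1a.2122 and Renilla. The nearest listed start site was that of C77080 for the downstream site and that of Zbtb8os for the upstream site. With a lower bound of enrichment of at least 2, Rbbp4 had 3 positions in Chaf1a.166, 3 in Chaf1a.2122 and 5 in Renilla. At this bound 1 Rbbp4 site was left in every list, and the same count was not made over all sites. Of all positions, the bound kept 10629 of 15888 in Chaf1a.166, 11071 of 19319 in Chaf1a.2122 and 11545 of 17681 in Renilla.

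The best-scored site of the locus lay about 10.5 kb downstream of the Rbbp4 start, in the direction of transcription. Its positions were on chromosome 4 at 129002104 (Chaf1a.166), 129002125 (Chaf1a.2122) and 129002153 (Renilla), which is a spread of 49 bp. The scores were 79.6 (Chaf1a.166), 69.8 (Chaf1a.2122) and 85.7 (Renilla). The ranks were 784 of 15888 in Chaf1a.166, 945 of 19319 in Chaf1a.2122 and 635 of 17681 in Renilla. In each list this was within the best 4.93% by score. By enrichment over input, the Chaf1a.166 position had 13.9 (lower bound 5.58, rank 4585 in its list) and the Chaf1a.2122 position 13.0 (lower bound 5.26, rank 5495). The Renilla position had 161 (lower bound 30.5, rank 22). A site 81 kb upstream, nearest to the start site of Zbtb8a, was the second best of the locus by score. Its scores were 46.7 (Chaf1a.166), 62.7 (Chaf1a.2122) and 45.0 (Renilla). Its enrichments over input were below the list medians, at 5.20 (Chaf1a.166, median 8.37), 4.56 (Chaf1a.2122, median 7.46) and 5.98 (Renilla, median 8.23). The Chaf1a.2122 position had a lower bound of 1.98.

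At the Rbbp4 start site itself, all 3 lists held a position. It lay 25 bp (Chaf1a.166), 32 bp (Chaf1a.2122) and 125 bp (Renilla) downstream of the start. A position within 500 bp of a start site was found at 7.40% (Chaf1a.166), 9.32% (Chaf1a.2122) and 7.62% (Renilla) of all start sites. The scores were 31.3 (Chaf1a.166), 16.6 (Chaf1a.2122) and 17.8 (Renilla). The ranks were 5132 of 15888 in Chaf1a.166, 12860 of 19319 in Chaf1a.2122 and 11743 of 17681 in Renilla. Of the 3 lists, Chaf1a.166 alone had this position above its median score of 23.7. By enrichment over input the order was another, at 7.08 (Chaf1a.166, lower bound 2.30), 25.6 (Chaf1a.2122, lower bound 4.34) and 7.25 (Renilla, lower bound 1.81). Here Chaf1a.2122 alone was above the median of its list, 7.46, against medians of 8.37 (Chaf1a.166) and 8.23 (Renilla). With a lower bound of at least 2 the Renilla position was gone, and those of Chaf1a.166 and Chaf1a.2122 were kept. With the Zbtb8os start 655 bp away, the position belongs to the shared promoter region of both genes. A flanking site of all 3 lists lay about 3.6 kb downstream, with scores of 18.6 (Chaf1a.166), 17.7 (Chaf1a.2122) and 17.8 (Renilla). Another lay about 4.4 kb upstream, with scores of 20.1 (Chaf1a.166), 32.7 (Chaf1a.2122) and 19.2 (Renilla). It was nearer to the Zbtb8os start, at 3805 bp (Chaf1a.166), 3793 bp (Chaf1a.2122) and 3777 bp (Renilla).

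**Figure D3:**
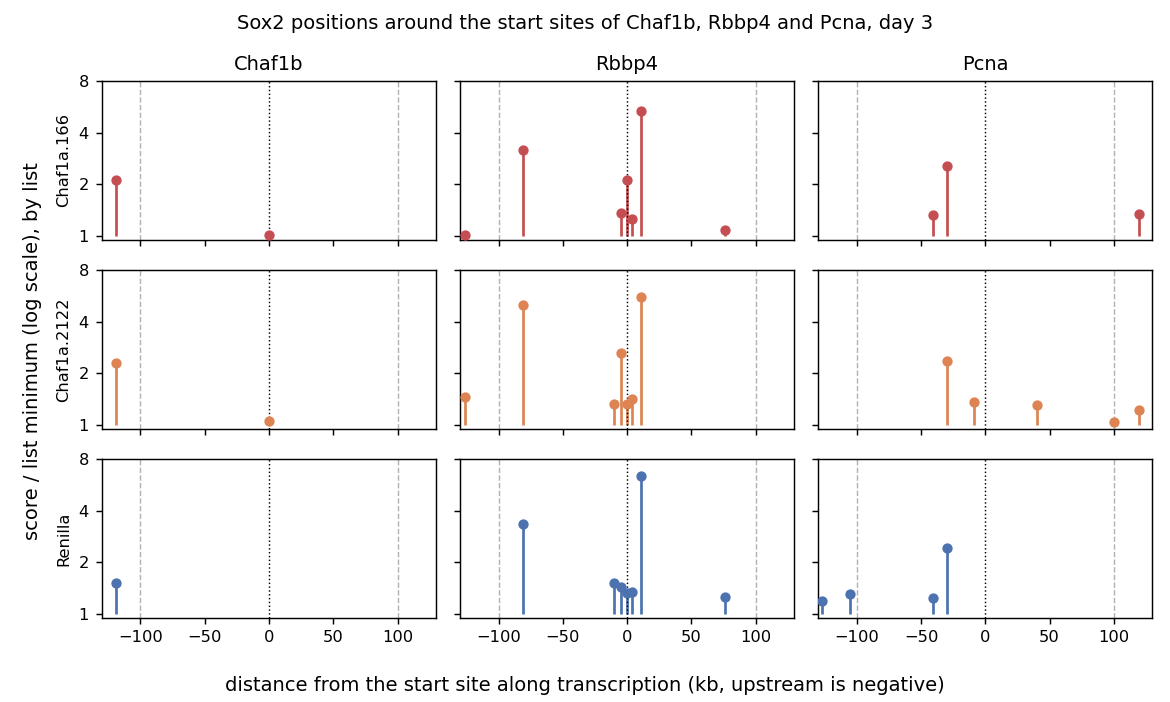
Sox2 positions around the start sites of Chaf1b, Rbbp4 and Pcna (columns) in the Chaf1a.166, Chaf1a.2122 and Renilla lists (rows from top to bottom). The x axis is the distance from the start site along transcription in kb, the y axis the score divided by the lowest score of the list on a log scale, and dashed lines mark 100 kb. Within the dashed lines Rbbp4 has 6 (Chaf1a.166), 6 (Chaf1a.2122) and 7 (Renilla) positions, and Chaf1b has 1 (Chaf1a.166), 1 (Chaf1a.2122) and 0 (Renilla), at the foot of the axis.

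**Figure D4:**
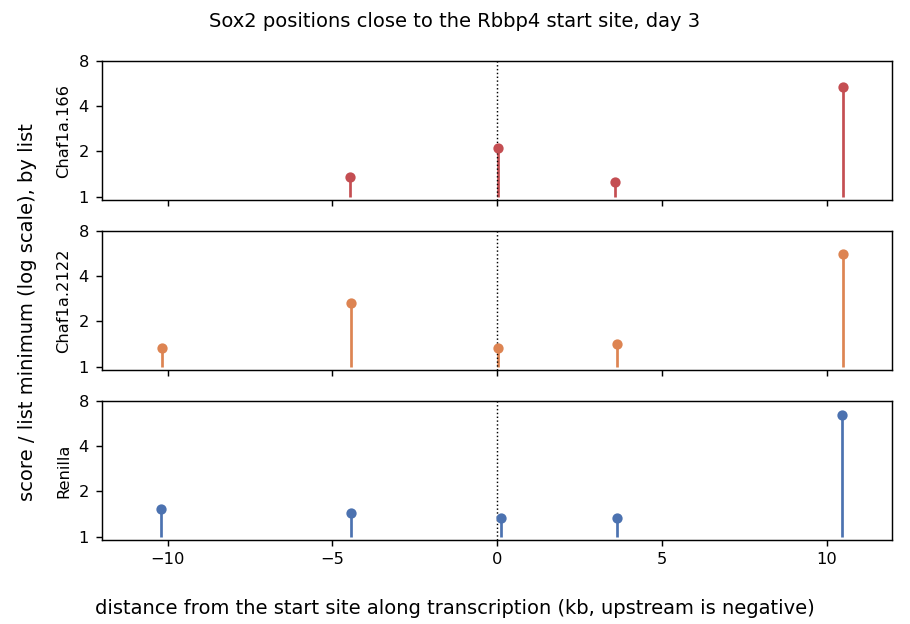
Close view of the Rbbp4 start site, with distance along transcription in kb on the x axis, score divided by the list minimum on a log y axis, and the Chaf1a.166, Chaf1a.2122 and Renilla lists from top to bottom. The site about 10.5 kb downstream is the tallest in every list, at 5.37 (Chaf1a.166), 5.61 (Chaf1a.2122) and 6.43 (Renilla) times the minimum.

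Pcna had no Sox2 position at its start site in any list. Its window held 2 positions in Chaf1a.166, 3 in Chaf1a.2122 and 2 in Renilla, close to the median of 2. The site held by all 3 lists lay about 30 kb upstream, beyond the start of Cds2, which encodes an enzyme of phospholipid synthesis and was 20085 bp (Chaf1a.166), 20090 bp (Chaf1a.2122) and 20060 bp (Renilla) away. Its positions on chromosome 2 were at 132109077 (Chaf1a.166), 132109082 (Chaf1a.2122) and 132109052 (Renilla). The scores were 37.8 (Chaf1a.166), 29.4 (Chaf1a.2122) and 32.4 (Renilla), each above the median of its list. A weaker site about 41 kb upstream was in Chaf1a.166 (score 19.7) and Renilla (score 16.6). By enrichment over input, its Chaf1a.166 position had 1.56 (lower bound 0.505) and ranked 15803 of 15888. The Renilla position had 4.96 (lower bound 1.11).

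The position nearest to the Pcna start was 9025 bp upstream in the Chaf1a.2122 list, with a score of 16.9. It lay 1051 bp from the start of Cds2, so it was nearer to that gene than to Pcna. The other position of that list alone lay 40550 bp downstream of the Pcna start, with a score of 16.2. A further Chaf1a.2122 position fell just outside the window, at 100082 bp with a score of 13.0, and a Renilla position lay at 104987 bp with a score of 17.6. The farthest position inside any of the 3 windows was the one at 81255 bp from Rbbp4, with a score of 45.0 in Renilla.

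No listed enhancer of the 3 genes had a Sox2 position within 500 bp. Such positions were found at 3.33% (Chaf1a.166), 3.65% (Chaf1a.2122) and 3.20% (Renilla) of all enhancers, so 0 of 9 is what most enhancers show. The closest approach was 6313 bp (Chaf1a.2122) and 6391 bp (Chaf1a.166), between the Chaf1b start site position and the enhancer downstream of it. The Rbbp4 enhancer was 26504 bp (Chaf1a.166), 26525 bp (Chaf1a.2122) and 26553 bp (Renilla) from its nearest position, the best-scored site of the locus.

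The 3 promoters are shown because the Sox2 positions differ there, with both knockdown lists at Chaf1b, all lists at Rbbp4 and none at Pcna. The sequences are RefSeq's of build GRCm38.p6, from 250 bases before to 50 after each start, and all 3 genes were matched by symbol. They are chr16:93883651-93883950 on the plus strand (Chaf1b), chr4:129335321-129335620 on the minus strand (Rbbp4) and chr2:132253131-132253430 on the minus strand (Pcna), printed 5′ to 3′ in the direction of transcription. Capitals mark matches on either strand to ACAAT or ACAAAG, which Sox factors prefer, and to ATGCAAA, part of the octamer that Oct4 binds.
Chaf1b: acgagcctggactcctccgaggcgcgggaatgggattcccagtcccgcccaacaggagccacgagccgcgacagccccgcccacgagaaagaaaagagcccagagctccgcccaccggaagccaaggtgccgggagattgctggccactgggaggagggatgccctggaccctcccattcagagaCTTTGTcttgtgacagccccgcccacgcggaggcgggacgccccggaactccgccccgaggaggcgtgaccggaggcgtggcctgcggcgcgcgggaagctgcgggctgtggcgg
Rbbp4: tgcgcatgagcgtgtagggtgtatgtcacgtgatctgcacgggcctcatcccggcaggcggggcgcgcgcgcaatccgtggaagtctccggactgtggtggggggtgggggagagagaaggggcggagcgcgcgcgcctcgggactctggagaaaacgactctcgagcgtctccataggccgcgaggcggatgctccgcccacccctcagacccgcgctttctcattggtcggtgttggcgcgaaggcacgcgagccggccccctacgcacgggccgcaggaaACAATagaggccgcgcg
Pcna: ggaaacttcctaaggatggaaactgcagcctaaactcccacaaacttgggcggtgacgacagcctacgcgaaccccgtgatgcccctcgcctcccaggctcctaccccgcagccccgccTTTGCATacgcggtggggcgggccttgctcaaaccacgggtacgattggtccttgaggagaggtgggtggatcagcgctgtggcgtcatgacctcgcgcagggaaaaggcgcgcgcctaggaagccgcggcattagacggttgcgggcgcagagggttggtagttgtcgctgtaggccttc

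Each promoter held 1 match of a different kind. In Chaf1b it was ACAAAG on the opposite strand, read as CTTTGT, which begins 65 bases before the start. In Rbbp4 it was ACAAT, which begins at base 34 of the transcript, with the first transcribed base counted as 1. In Pcna it was ATGCAAA on the opposite strand, read as TTTGCAT, which begins 131 bases before the start. Of 32817 promoters of the same length, 18.7% held ACAAAG, 31.0% ACAAT and 4.63% ATGCAAA on either strand. The Sox2 positions at 136 and 58 bp upstream of Chaf1b and at 25, 32 and 125 bp downstream of Rbbp4 are counted from the mm9 start sites of the Sono-seq table. The start sites of the 2 builds were not aligned, so these matches cannot be placed exactly against the positions, and a match is only a run of letters.

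The 3 promoters were alike in base composition. G and C made up 70.3% of the Chaf1b, 68.7% of the Rbbp4 and 63.0% of the Pcna promoter, against a median of 52.7%. CpG pairs numbered 30, 39 and 26, against a median of 7. The letters GGGCGG of the GC box, on either strand, occurred 5 times in Chaf1b, 2 times in Rbbp4 and 2 times in Pcna. At least 1 match was found in 35.6% of promoters, and shares by number of matches were not computed. CCAAT, the box bound by the factor NF-Y, occurred once in Rbbp4 and once in Pcna (37.4% of promoters). Of 2 E2F-type cores searched, TTGGCGC occurred once in Rbbp4 (2.45% of promoters) and TTTCGCG in none of the 3 (0.847%). No match overlapped another.

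Genes that work with CAF-1 and Pcna were described in the same table by 3 lists, which give counts only. Of 30 genes of Pcna loading and Pcna partners, 14 were in the table with 15 promoters, of which 6 had more and 9 had less signal with CAF-1 knockdown, where 51.8% of all promoters had less. At 1.2-fold, 2 of the 15 were higher, against 11.3% of all promoters, and 0 were lower, against 13.3%. The 2 were Rnaseh2b and Pold3, and with equal medians only 1 of them, Rnaseh2b, was past 1.2-fold (9.65% of all promoters). Pold3 is named after its value was seen. The highest was Rnaseh2b, a subunit of RNase H2, at 0.133 with CAF-1 knockdown and 0.105 with Renilla. The lowest was Dnmt1, the maintenance DNA methyltransferase, at 0.146 with CAF-1 knockdown and 0.170 with Renilla. Of 32 genes of complexes that contain Rbbp4, 20 were found with 21 promoters, with 9 higher and 12 lower, again beside 51.8% lower of all promoters. Of the 21, 1 was at least 1.2-fold higher (11.3% of all) and 0 were at least 1.2-fold lower (13.3% of all). The 1 higher promoter was that of Suz12, a Polycomb subunit, at 0.123 with CAF-1 knockdown and 0.0968 with Renilla. The lowest was Mtf2, a Polycomb accessory protein, at 0.101 with CAF-1 knockdown and 0.116 with Renilla.

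Histone supply at replication had the highest share of lower values of the 3 lists, though not the lowest median. Of 22 listed genes, 8 were in the table with 9 promoters. Of these, 1 had more and 8 had less signal with CAF-1 knockdown, against 51.8% of all promoters lower. This count is by sign alone and includes log2 ratios close to 0, such as -0.019 for Mcm3. The list also holds Mcm2, Mcm3 and Mcm5, and it shares Rbbp7 with the list of complexes that contain Rbbp4. Past 1.2-fold, 4 promoters were lower, against 13.3% of all. They were both start sites of Nasp, a chaperone of soluble histones H3 and H4, and those of Mcm2 and Tlk2, which are named after their values were seen. The Nasp start sites had 0.0853 and 0.0840 with CAF-1 knockdown, against 0.119 and 0.115 with Renilla, and as close neighbours they can share signal. The log2 ratios were -0.48 and -0.46 (Nasp), -0.33 (Mcm2) and -0.28 (Tlk2). The highest of the list was Tlk1, a kinase of the chaperone Asf1, at 0.104 with CAF-1 knockdown and 0.0774 with Renilla (log2 ratio 0.43), so the related kinases Tlk1 and Tlk2 lay on opposite sides. The median log2 ratio was -0.087 for Pcna loading and partners, -0.073 for histone supply and -0.072 for complexes that contain Rbbp4, against -0.0093 for all promoters.

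Within 10 kb of a start site, the Renilla list of Sox2 positions held fewer of these genes than either knockdown list did. For Pcna loading and partners the counts were 4 (Chaf1a.166), 4 (Chaf1a.2122) and 1 (Renilla) of 14 genes. For histone supply they were 3 (Chaf1a.166), 3 (Chaf1a.2122) and 1 (Renilla) of 8. For complexes that contain Rbbp4 they were 3 (Chaf1a.166), 5 (Chaf1a.2122) and 2 (Renilla) of 20. Over all 5154 genes the shares were 28.5% (Chaf1a.166), 33.4% (Chaf1a.2122) and 29.3% (Renilla). The Renilla counts lay below that share in each of the 3 gene lists. The knockdown counts were near their shares for Pcna loading and partners, above them for histone supply and below them for the Rbbp4 complexes. The genes named next were chosen after their values were seen. Fen1, the flap endonuclease of Okazaki fragments, Mcm3, Bptf and Mtf2 had a position in all 3 lists, as Rbbp4 did. The pattern of Chaf1b, with a position in both knockdown lists and none in Renilla, was found for 2 genes of Pcna loading and partners, 1 of histone supply and 0 of the complexes, against 2.99% of all genes. They were Msh6 and Ung, which act in mismatch and uracil repair, and Nasp. These counts are small, share 1 library per hairpin and were not tested. Unlike those at Chaf1b, the positions near these genes were not compared with the list minima.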

How the data were processed

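The deposited files hold 3 lists of Sox2 binding positions and 1 Sono-seq table in mm9 coordinates. The submitters' processing notes list BWA 0.7.8 and Bowtie, with no role for either. The lists' names carry the letters WTC, which no source used here explains, and the position caller is not otherwise named. Per the file headers, the authors gave each position a score, an E-value, its false discovery rate (q-value) and the ratio of enrichment over input with a lower bound. The deposited Sono-seq values were treated as a score of unstated unit, 1 per condition and region. Region coordinates were taken by the authors from an earlier publication, per the file headers. No per-sample column was left unmapped (0), and no value was 0.

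The log2 ratio of CAF-1 over Renilla was computed without a pseudocount. Percentiles are shares of distinct regions below a value. Positions of the 3 lists were joined where neighbours lay within 200 bp. The code for this step was run on simulated sites set far apart, so the joining of closely spaced sites was not tested. Strands and promoter sequences came from RefSeq tables of GRCm38.p6, which also gave names only. Python 3.11.15, pandas 2.3.3, NumPy 2.4.6 and matplotlib 3.10.9 were used. Depth is unknown. Named genes are the 3 members, the 2 promoters nearest to each by log2 values, the highest and lowest promoter of each list, and the genes nearest to described sites. Pold3, Mcm2, Tlk2, Fen1, Mcm3, Bptf, Msh6 and Ung were named after their values were seen. Mcm5 and Rbbp7 are named only to describe the lists. Members and lists were chosen with earlier results of these data known. The 49 ATAC-seq, RNA-seq and H3K9me3 samples were not analysed here.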

Additional observations from a re-analysis of the deposited data

How the results depend on the processing

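No paired analysis was possible because all 3 libraries of a Sono-seq condition share 1 value per region in the table used here, and the Sox2 lists come from 1 immunoprecipitate per hairpin. No library could be left out for the same reason. Scaling the Sono-seq columns to equal medians, a log2 shift of 0.019, kept the sign of each promoter ratio, at 0.11 (Chaf1b), -0.27 (Rbbp4, now past 1.2-fold) and -0.039 (Pcna), and a pseudocount of 0.05 gave 0.093, -0.18 and -0.014. The enhancer medians were 0.16, -0.18 and -0.14 with equal medians and 0.14, -0.10 and -0.091 with the pseudocount. With equal medians, chosen for these counts after seeing the data, 1 in place of 2 promoters of Pcna loading and partners was at least 1.2-fold higher. Of 21 promoters of the Rbbp4 complexes, 14 in place of 12 were lower (55.6% of all promoters). The 1.2-fold counts of the other lists and of the Chaf1b enhancers did not move. The shares of all promoters past 1.2-fold moved to 9.65% higher and 15.0% lower. Those of all enhancers moved to 13.6% higher and 12.2% lower. Of the Chaf1b enhancers, those 75545 and 12495 bp upstream and 6255 bp downstream were above the median level. Their median stayed at 0.18 because the enhancer at 75545 bp was the middle value both times. Rbbp4 and Pcna had no enhancer above that level.

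Within 10 kb, Rbbp4 had 3 (Chaf1a.166), 3 (Chaf1a.2122) and 3 (Renilla) Sox2 positions and Pcna 0 (Chaf1a.166), 1 (Chaf1a.2122) and 0 (Renilla). Within 200 kb, Chaf1b had 2 (Chaf1a.166), 3 (Chaf1a.2122) and 1 (Renilla), and Pcna 5 (Chaf1a.2122) and 4 (Renilla). Where the lower bound of enrichment had to be at least 2, Chaf1b had 0 positions in Chaf1a.166 and 0 in Chaf1a.2122. Rbbp4 had 3 in Chaf1a.166, 3 in Chaf1a.2122 and 5 in Renilla. Pcna had 1 in Chaf1a.166, 3 in Chaf1a.2122 and 1 in Renilla. Of all positions, the bound kept 10629 of 15888 in Chaf1a.166, 11071 of 19319 in Chaf1a.2122 and 11545 of 17681 in Renilla. Of the 6 sites in every list, 2 then met this bound in every list, 1 at Rbbp4 and 1 at Pcna. How many of all 11004 sites in every list met it was not counted, so this drop has no share beside it. With lists of equal length, Chaf1b had 0 positions in Chaf1a.2122 and the number of sites in every list was still 6. A limit of 0.001 on the false discovery rate could remove no position, since the highest value in any list was 0.000644. Joining within 100 or 500 bp also gave 6 sites in every list. These counts differ by construction, through the window or the limit. Missing positions cannot be read further, since depth is unknown.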
